A study of Mus musculus with 8 samples.

Results

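The genes described here are 44 genes of DNA replication and mitosis, in the livers of 8 old female Ames dwarf mice. They were taken by name, as all probe sets whose only gene symbol in the platform annotation was one of the 44. The list of names was chosen with earlier results of these data known. The array carried 41 of them on 59 probe sets, out of 8251 genes named by a single symbol on 10833 probe sets, and 12488 probe sets in all. Tyms, Ccnb1 and Bub1b had no probe set of that kind and have no value here. By role, 17 of the 41 genes act in DNA replication, 8 control the passage from G1 into S phase, and 16 act in mitosis. All 8 mice were homozygous for the Ames dwarf allele (df/df), which leaves the pituitary without growth hormone, prolactin and thyroid-stimulating hormone. They had free access to standard pellets, their age at death was 24 to 26 months, and each liver was measured on an Affymetrix mouse U74Av2 array. The 8 livers form 1 group, so the data show differences from liver to liver and no effect of the dwarf allele or of age.

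A cell that divides first loads the MCM helicase onto replication origins, then copies its DNA with a polymerase, a sliding clamp and a ligase on nucleotides made by ribonucleotide reductase and thymidine kinase. D and E cyclins with their kinases release E2F transcription factors, which switch on many replication genes before S phase. Cyclins A and B with Cdk1, the Polo and Aurora kinases and the spindle checkpoint then drive mitosis, and many of these genes are switched on later, through CHR elements and CCAAT boxes in their promoters. Most hepatocytes of an adult liver are not dividing, and macrophages, lymphocytes and other cells of the organ can divide as well. In RNA from whole liver, more cells of a type and more RNA per cell cannot be told apart.

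E2F-like motifs were more frequent in promoters of replication genes and CHR-like motifs in those of mitosis genes, while CCAAT was common in both. As examples, 6 promoters are shown, and no test was made of the difference. RefSeq promoter windows of GRCm38.p6, from 250 bases before to 50 bases after the start, were found for 36 of the 44 genes. An E2F-like motif (TTCCCGC or else TTCGCGC or else TTGCCGC or else TTGGCGC, on either strand) lay in the window of 12 of 17 replication genes, 3 of 13 mitosis genes and 1 of 6 G1/S control genes, against 13.7% of 17491 protein-coding genes. A CHR-like motif (TTTGAA or TTCGAA, on either strand) lay in 10 of 13 mitosis genes, 3 of 17 replication genes and 1 of 6 G1/S control genes, against 20.2% of protein-coding genes. CCAAT, on either strand, lay in 13 of 17 replication genes, 11 of 13 mitosis genes and 3 of 6 G1/S control genes, against 42.3%. E2F-like matches can overlap each other, as in Mcm5, and can overlap CCAAT. A match is a run of letters and not a measured binding site. The 250 bases before the start are printed 5′ to 3′ for 2 replication and 4 mitosis genes that were highest in liver 4 on at least 1 probe set, with all matches in capitals.
Mcm5, chr8:75109259-75109508, plus strand: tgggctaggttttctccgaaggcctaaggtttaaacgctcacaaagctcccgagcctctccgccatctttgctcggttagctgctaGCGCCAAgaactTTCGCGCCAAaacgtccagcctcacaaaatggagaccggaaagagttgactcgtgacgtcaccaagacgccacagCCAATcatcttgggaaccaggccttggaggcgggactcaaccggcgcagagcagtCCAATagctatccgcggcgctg
Rrm2, chr12:24708004-24708253, plus strand: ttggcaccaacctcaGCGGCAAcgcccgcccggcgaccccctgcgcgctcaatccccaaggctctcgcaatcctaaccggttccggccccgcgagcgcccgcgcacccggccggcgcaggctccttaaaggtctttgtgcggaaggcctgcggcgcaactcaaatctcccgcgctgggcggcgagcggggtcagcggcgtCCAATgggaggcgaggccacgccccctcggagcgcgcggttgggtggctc
Cdc20, chr4:118437344-118437593, minus strand: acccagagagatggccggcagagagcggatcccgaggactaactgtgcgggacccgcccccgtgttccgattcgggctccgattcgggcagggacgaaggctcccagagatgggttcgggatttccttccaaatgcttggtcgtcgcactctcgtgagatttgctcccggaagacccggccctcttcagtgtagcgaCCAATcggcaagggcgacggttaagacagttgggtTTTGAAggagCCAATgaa
Cdk1, chr10:69352913-69353162, minus strand: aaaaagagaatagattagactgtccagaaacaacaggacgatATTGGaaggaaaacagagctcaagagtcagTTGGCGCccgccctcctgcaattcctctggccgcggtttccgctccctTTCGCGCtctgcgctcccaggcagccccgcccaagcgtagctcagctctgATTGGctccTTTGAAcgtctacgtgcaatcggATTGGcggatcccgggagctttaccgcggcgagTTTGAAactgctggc
Mki67, chr7:135716380-135716629, minus strand: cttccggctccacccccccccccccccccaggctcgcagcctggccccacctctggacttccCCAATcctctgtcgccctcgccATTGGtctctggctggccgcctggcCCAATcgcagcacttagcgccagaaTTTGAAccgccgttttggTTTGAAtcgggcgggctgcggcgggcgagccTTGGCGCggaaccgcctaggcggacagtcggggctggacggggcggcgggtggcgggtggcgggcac
Top2a, chr11:99024190-99024439, minus strand: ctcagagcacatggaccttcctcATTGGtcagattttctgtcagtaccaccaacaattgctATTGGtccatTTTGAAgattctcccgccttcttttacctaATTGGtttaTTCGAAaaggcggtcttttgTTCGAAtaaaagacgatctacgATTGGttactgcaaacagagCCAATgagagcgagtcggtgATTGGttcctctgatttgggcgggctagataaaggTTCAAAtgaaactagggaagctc
The Mcm5 window held 3 E2F-like matches, no CHR-like match and 3 CCAAT matches, the last of which begins at position 7 from the start and is not printed. The Top2a window held 4 CHR-like and 6 CCAAT matches and no E2F-like match. Cdk1 and Mki67 held matches to all 3 motifs. Other genes highest in liver 4 are not printed. Among them, Birc5 and Mad2l1 held no match to any of the 3 motifs, and Pcna matched CCAAT only.

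Signals of most of these genes lay in the range of genes that a liver should not express. The table holds no detection calls, so background was read from 76 probe sets of 56 genes restricted to other tissues, such as Y-linked, photoreceptor, germ cell, pituitary and muscle genes. The 95th percentile of their signals was 322 and the median was 41.5. A few of these probe sets were bright on every array, among them Krt4 and Lhb, and probe sets differ in how strongly they bind their target, so the limit is a strict one. Of the 59 member probe sets, 9 had a mean signal above 322, against 37.5% of all named probe sets. These 9 belonged to Tk1, Pcna, Cdk4, Ccnd3, Ccnd1, Foxm1, Plk1, Ccna2 and Ccnb2. The names of the Foxm1 and Plk1 probe sets end in a letter that marks probes which may match other transcripts or were chosen under relaxed rules. In all 8 livers, 5 stayed above the limit (30.8% of all named probe sets did), namely those of Tk1, Pcna, Cdk4, Ccnd3 and Foxm1. Of the 22 member genes bright enough to be tested below, these are 9, against 74.9% of all tested genes. By role, 2 of 23 replication, 3 of 12 G1/S control and 4 of 24 mitosis probe sets passed.

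The count turned on the limit. With the median of all non-control probe sets as the limit, at a signal of 162, 26 of the 59 passed (52.5% of all named probe sets), and with the 90th percentile of the not-liver genes, at 196, 24 passed (48.6% of all named). With the 95th percentile of bacterial control probe sets, at 61.7, 36 passed (70.4% of all named). The other 23 probe sets had means below even this last limit, and 14 of them were of mitosis genes, among them those of Top2a, Cdk1, Birc5, Kif11, Aurka, Aurkb and Bub1. Mcm6, a helicase subunit, and Ccnd2, a D cyclin, did not reach 61.7 in any liver.

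**Figure D1:**
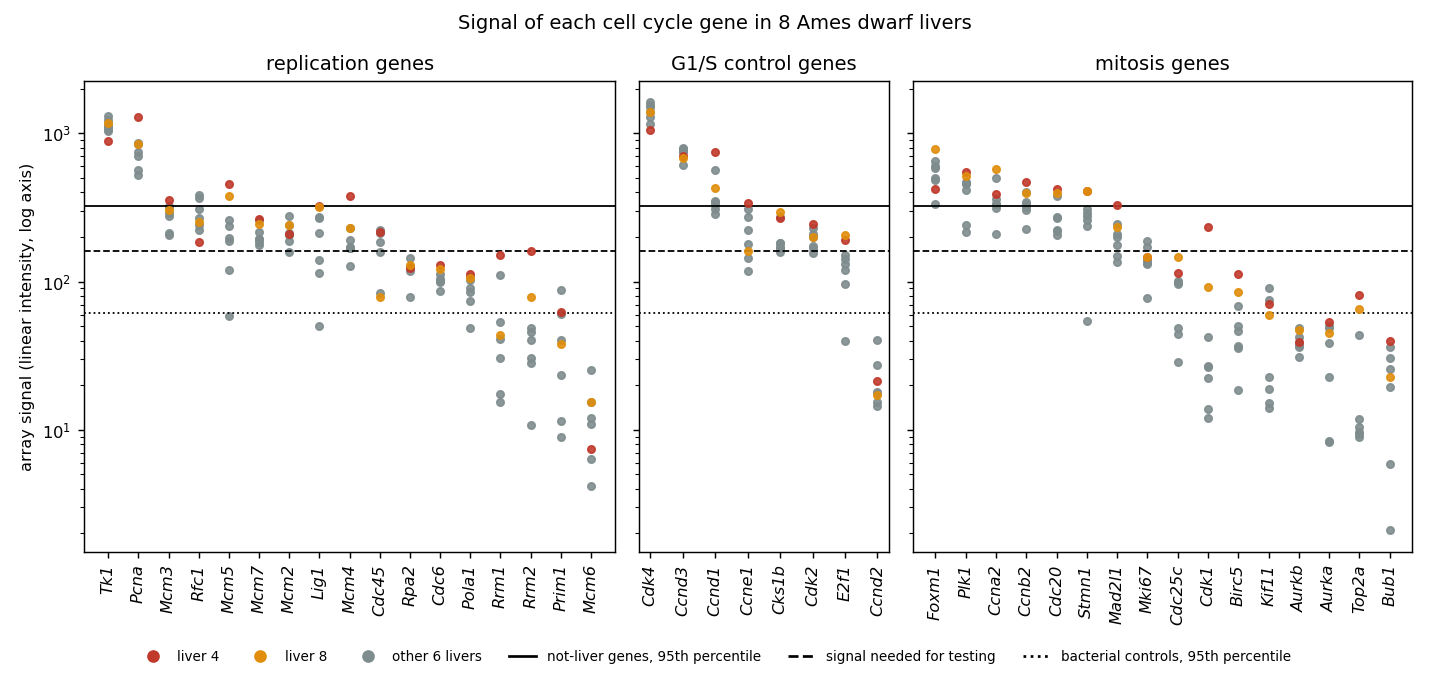
Each column is a gene and each point is 1 liver, on a log axis of array signal, with the probe set of highest mean signal for each gene and horizontal lines at signals of 322, 162 and 61.7. Liver 4 (red) and liver 8 (orange) lie at or near the top of many columns, whereas heights of different genes cannot be compared because probe sets bind unequally.

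Of the 25 member probe sets bright enough to be tested, 6 varied between livers more than is typical for genes of like signal. They were those of Mcm5, Lig1, Pcna, Ccnd1, Plk1 and Stmn1, or 24.0% of 25 against 11.3% of all 6211 tested probe sets. A probe set was tested if it was brighter than the median non-control probe set on the log2 scale, and the test set the variance over 8 livers against a curve of typical variance by a chi-square distribution, with Benjamini-Hochberg adjustment over all 6211. An alternative, limma-based test was built on the prior variance and the largest prior degrees of freedom that limma fitted. It set each variance against that prior by an F distribution, which allows for the wide spread of variances. There, 0 of 25 members and 0 of 6211 probe sets (0.00%) passed, and 3 members had an unadjusted p under 0.05 (6.84% of all). The median fold range, highest over lowest liver, was 2.22 for the 22 tested member genes and 1.61 for all 4819 tested genes. Without livers 4 and 8, an alternative chosen after the values were seen, 3 of 25 passed (8.03% of all), those of Mcm5, Plk1 and Stmn1, and Lig1 was then too dim to be tested.

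**Figure D2:**
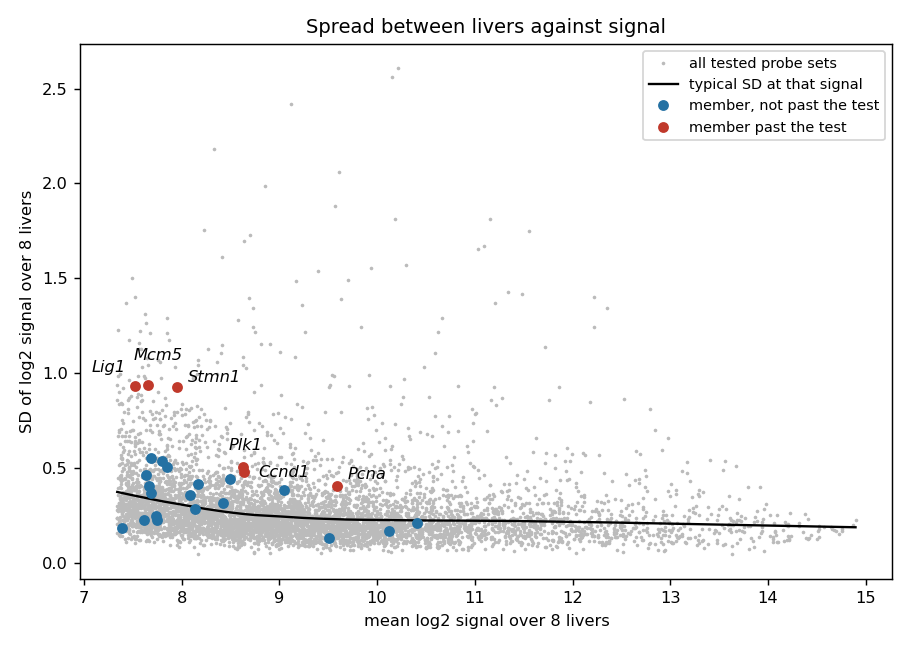
Each grey dot is a tested probe set, with its mean log2 signal over 8 livers on the horizontal axis and the SD of its log2 signal on the vertical axis, and the black line is the typical SD. The 6 members past the test (red, named) lie well above the line, and the 19 others (blue) lie on both sides of it.

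Among the replication genes, the helicase subunit Mcm5 showed the widest spread of the tested members, and most other helicase subunits were far more even. The Mcm5 signals of livers 1 to 8 were 237, 119.5, 59.1, 459, 259, 188, 196 and 380.2 (mean 237 ± 131, SD, n = 8), a 7.77-fold range. Livers 4 and 8 were highest and livers 3 and 2 lowest, and the SD of log2 signal was 0.94 where 0.34 is typical (adjusted p = 1.21e-07 in the typical-variance test). Without liver 3 its log2 range was 1.94 instead of 2.96 (adjusted p = 0.00468 in that test). A further Mcm5 probe set, of shared-sequence type (its name ends in a letter that marks probes which may match other transcripts or were chosen under relaxed rules), read 27 to 135 and was lowest in liver 8, so it did not follow this order. Mcm4 read 229, 128, 168, 379, 173, 169, 192 and 231, with liver 4 alone far above the rest, and did not pass the test (adjusted p = 0.366 in the typical-variance test). Mcm3, Mcm7 and Mcm2 ranged 1.73-fold, 1.48-fold and 1.75-fold, with Mcm3 and Mcm7 highest in liver 4 and Mcm2 in liver 5. That Mcm3 probe set is of shared-sequence type. A dimmer one, not of that type and below the signal needed for testing, read 52.8 to 248 and was highest in livers 4 and 8.

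Of the proteins that load and activate the helicase, Cdc45 departed from the order of Mcm5 and Cdc6 did not. Cdc45, which joins the MCM ring to form the active helicase, read 158 to 222 in livers 1 to 6 but 84.2 and 78.6 in livers 7 and 8. Its mean on the log2 scale fell just short of that needed for testing, although 5 of its 8 signals exceeded 162. Cdc6, which loads the ring onto origins, was too dim to be tested and even, at 85.9 to 129.9, with livers 4 and 8 highest and livers 2 and 3 lowest.

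At the replication fork, the ligase and the clamp varied. Lig1, which joins Okazaki fragments, read 114, 140.2, 50.2, 323, 269, 273, 213 and 318 in livers 1 to 8 (SD of log2 signal 0.93, where 0.35 is typical, n = 8). Livers 1 to 3 were the lowest and livers 4 and 8 the highest, a 6.44-fold range (adjusted p = 8.98e-07 in the typical-variance test). Without liver 3, the lowest, the log2 range was 1.5 instead of 2.69 (adjusted p = 0.0397 in that test). A further Lig1 probe set, of shared-sequence type, ranged only 2.30-fold and was lowest in liver 4. Pcna, the sliding clamp, read 863, 702, 568, 1288, 523, 853, 750.1 and 845 (mean 799 ± 236, SD, n = 8). Liver 4 stood above all others, and the 2.46-fold range passed the typical-variance test (adjusted p = 0.0309). The call rested on single livers, with a log2 range of 0.72 instead of 1.3 without liver 4, and with an adjusted p in that test of 0.48 without liver 4, 0.104 without liver 5 and 0.0727 without liver 3, and of 0.247 with arrays scaled to a common median. Rfc1, a subunit of the clamp loader, ran the other way, from 185 in liver 4 to 386.5 in liver 6, and did not pass (adjusted p = 0.675 in the typical-variance test). Pola1, Prim1 and Rpa2, for the polymerase, the primase and the single-strand binding protein, had means of 90.6, 41.5 and 121, too low to be tested.

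The nucleotide-supply genes split. Tk1, thymidine kinase, was bright and even, at 1306, 1149, 1032.5, 895, 1104, 1227.5, 1069.5 and 1169 in livers 1 to 8 (mean 1119 ± 126, SD, n = 8). It was lowest in liver 4, ranged 1.46-fold and varied less than is typical (SD of log2 signal 0.17 against 0.23). A further Tk1 probe set read 20.4 in liver 4 and 279.8 in liver 5. Rrm1 and Rrm2, the subunits of ribonucleotide reductase, had means of 57.9 and 55.6 and were both highest in liver 4, at 151.5 and 162. A further Rrm1 probe set was lowest there, at 7.90.

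Of the G1/S control genes, cyclin D1 varied, and cyclin D3 and Cdk4 were steady. Ccnd1 read 567, 285.5, 311, 751, 329.7, 351, 343 and 429 in livers 1 to 8 (mean 421 ± 160.5, SD, n = 8). Livers 4 and 1 stood apart from the other 6 and the range was 2.63-fold (adjusted p = 0.0113 in the typical-variance test). The adjusted p of that test was 0.53 without liver 4, 0.0548 without liver 1 and 0.072 with median scaling. A further tested Ccnd1 probe set ranged 2.83-fold, was highest in livers 8 and 4 and did not pass (adjusted p = 0.114 in the typical-variance test).

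Ccnd3 read 785, 746.5, 796, 699, 773.5, 608, 759 and 683, which is a range of only 1.31-fold and an SD of log2 signal of 0.13 where 0.23 is typical. Cdk4, the kinase that D cyclins activate, read 1619, 1292, 1163, 1059, 1564, 1508, 1406 and 1385, lowest in liver 4. Its 1.53-fold range was about typical (SD of log2 signal 0.21 against 0.22). Ccne1, the E cyclin that acts with Cdk2, read 118 in liver 5 to 342 in liver 4 and did not pass (adjusted p = 0.0727 in the typical-variance test). A further Cdk4 probe set, tested, ranged 1.44-fold, and that one was highest in liver 4. Cdk2 ranged 1.58-fold and Cks1b, a small Cdk-binding protein, 1.84-fold. E2f1, the S phase transcription factor, was too dim to be tested, and its 2 probe sets, the brighter of shared-sequence type, read 39.8 to 206 and 8.30 to 73.3. Both were highest in liver 8, next in liver 4 and lowest in liver 2.

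Among the mitosis genes, stathmin and Polo-like kinase 1 passed the test. Stmn1, which destabilises microtubules, read 289, 54.5, 236, 412, 262, 275.5, 310.4 and 409 in livers 1 to 8 (mean 281 ± 112, SD, n = 8). Its 7.56-fold range (adjusted p = 2.87e-09 in the typical-variance test) came from liver 2 alone at the low end, and without liver 2 the log2 range was 0.81 instead of 2.92 and the adjusted p 0.883. Plk1, a kinase of mitotic entry and spindle assembly, read 416, 459.6, 241, 548, 215, 459, 468 and 514 (mean 415 ± 122, SD, n = 8). Livers 5 and 3 were low, the other 6 lay close together, and the range was 2.55-fold (adjusted p = 0.00433 in the typical-variance test, 0.127 without liver 5). That probe set and a dim one, at 19.7 to 64.4, are of shared-sequence type, as is a tested one that read 127 to 339.6 and did not pass (adjusted p = 0.0687 in the typical-variance test). This last one had another order of livers, highest in liver 2 and lowest in livers 3 and 1, with 250 in liver 5.

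The mitotic cyclins and their transcription factor did not pass the test. Ccna2, cyclin A2, read 332, 359.7, 209, 389, 336, 314, 500.2 and 579, highest in livers 8 and 7 and lowest in liver 3. It ranged 2.77-fold and missed the threshold (adjusted p = 0.0576 in the typical-variance test), and passed without liver 2, 4 or 5 (0.0332, 0.0248 and 0.0211) and without shared-sequence probe sets (0.0438). Without liver 3 its log2 range was 0.88 instead of 1.47 (adjusted p = 0.586 in that test). Foxm1, a transcription factor of mitotic genes, read 581, 501, 334, 419.7, 654, 603, 488 and 788 (adjusted p = 0.102 in the typical-variance test), again highest in liver 8 and lowest in liver 3, but second lowest in liver 4. This Foxm1 probe set is of shared-sequence type, and a further one, not of that type, read only 15.6 to 30.7. Ccnb2, cyclin B2, and Cdc20, an activator of the anaphase-promoting complex, ranged 2.06-fold and 2.07-fold, and Mad2l1, which inhibits Cdc20 in the spindle checkpoint, 2.42-fold. These 3 were highest in liver 4 and did not pass.

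Several classical markers of dividing cells were near background in most livers and had their highest signals in liver 4. Cdk1 and Top2a exceeded 61.7, the limit from bacterial controls, in livers 4 and 8 only, and the dimmer Mki67 probe set in liver 4 only. They are named here after their values were seen, and their signals were too low for the test. Cdk1, the mitotic kinase, read 26.5, 13.9, 22.5, 234, 42.6, 27, 12 and 92.1 in livers 1 to 8. Top2a, a topoisomerase that untangles sister chromatids, read 10.5, 8.90, 9.70, 81.5, 11.8, 43.7, 9.40 and 65.3. The lower of 2 Mki67 probe sets, for the proliferation antigen Ki-67, read 19, 7, 6.70, 131.5, 7.80, 58.7, 7.10 and 54.4. In Top2a and Mki67 livers 4, 6 and 8 lay apart from the other 5, and in Cdk1 livers 4 and 8 did. The brighter Mki67 probe set, of shared-sequence type, read 78.0 to 187 and was highest in liver 5.

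Rrm2, a replication gene, followed a like order, at 45.9, 10.8, 28.1, 162, 30.5, 40.7, 48.7 and 78.7. Birc5, survivin, read 18.5 in liver 2, 113 in liver 4 and 85.2 in liver 8. Kif11, a spindle motor, was highest in liver 6 (91.1), and livers 5, 4 and 8 followed at 75.3, 71.0 and 59.5. Cdc25c, a phosphatase that activates Cdk1, read 28.8 in liver 2 and 147 in liver 8 on a probe set of shared-sequence type, and its other probe set 6.20 to 35.2. Aurkb and Aurka, the Aurora kinases, stayed between 31.2 and 48.8 and between 8.30 and 53.3. Bub1, a checkpoint kinase, read 2.10 to 40.0 on its brightest probe set and below the floor of 11.2 in all livers on the other two. None of these signals exceeded 322, the 95th percentile of genes not expected in liver. With no filter on low signals, 10 of 57 member probe sets passed the typical-variance test (8.63% of 12103). Those of Cdk1, the dimmer Mki67, Top2a and the dimmer Tk1 were added to the 6 (adjusted p = 0.0066, 0.00303, 0.00319 and 0.000233 in that test). Cdk1, Mki67 and Top2a had been named for their values in these same livers, so their p-values restate that pattern and are no further support.

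**Figure D3:**
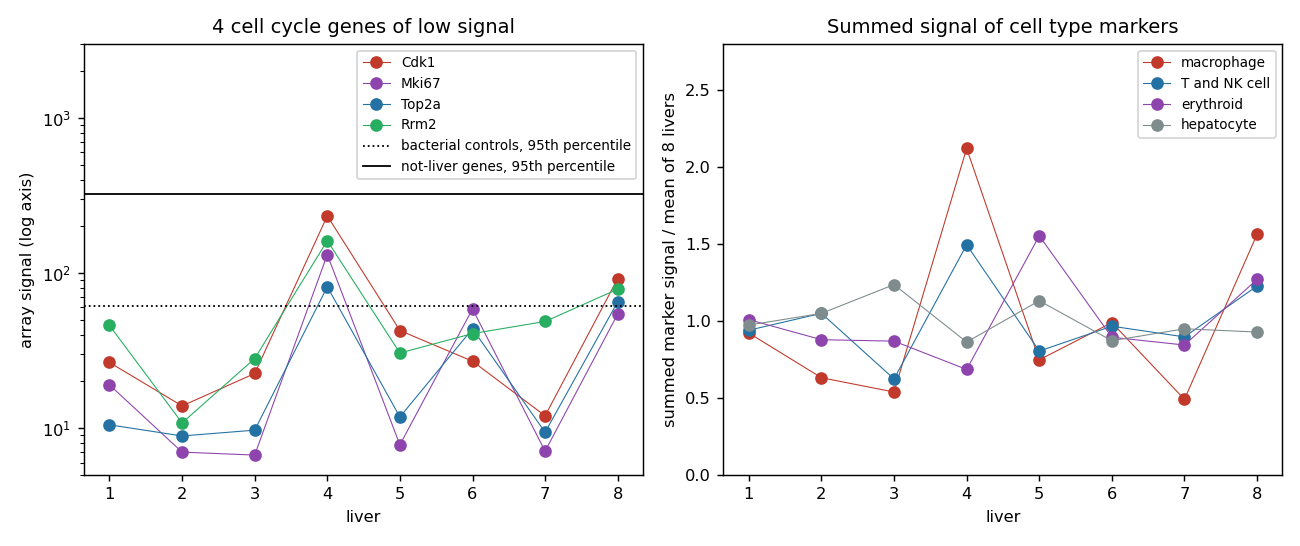
The left panel plots the array signal (log axis) of 4 low-signal genes (for Mki67 the dimmer probe set) in each of the 8 livers, with lines at 61.7 (bacterial controls) and 322 (not-liver genes). The 4 genes were chosen after their values were seen, so the height of liver 4 in this panel is not a separate result. Kif11, Cdc25c and the brighter Mki67 probe set, highest in livers 6, 8 and 5, are not drawn. The right panel plots the summed signal of 4 cell type marker lists, each divided by its mean over livers, and liver 4 is highest for macrophage and for T and NK cell markers.

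Liver 4 held the highest value for most of the member genes, in replication and mitosis alike, but not for most genes of longer lists of the pathway. Of the 22 tested member genes, each by its brightest probe set, 14 were highest in liver 4, against 17.7% of all 4819 tested genes. By role these were 6 of 9 replication, 3 of 6 G1/S control and 5 of 7 mitosis genes. With arrays scaled to a common median or quantile-normalized, 12 of 22 were (12.7% and 16.9% of all tested genes). Over all 41 genes on the array, 23 were highest in liver 4, against 18.1% of 8251. Exceptions in liver 4 were Tk1, Cdk4 and Rfc1, which were lowest there. In the longer lists described below, far fewer genes were highest in liver 4. These were 5 of 20 tested other replication genes, 4 of 16 other mitosis genes and 3 of 15 other G1/S regulators and inhibitors. Livers 4 and 8 together held the highest 2 values for 6 of the 22 tested genes (9.71% of all) and for 13 of all 41 (10.1%). Of lowest values, liver 3 held 5 of 22, against 13.7% of all tested genes. Liver 2 held 6, liver 5 held 6 and liver 4 held 3. The shares of all tested genes lowest in those livers were not computed, so these counts are not read further.

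**Figure D4:**
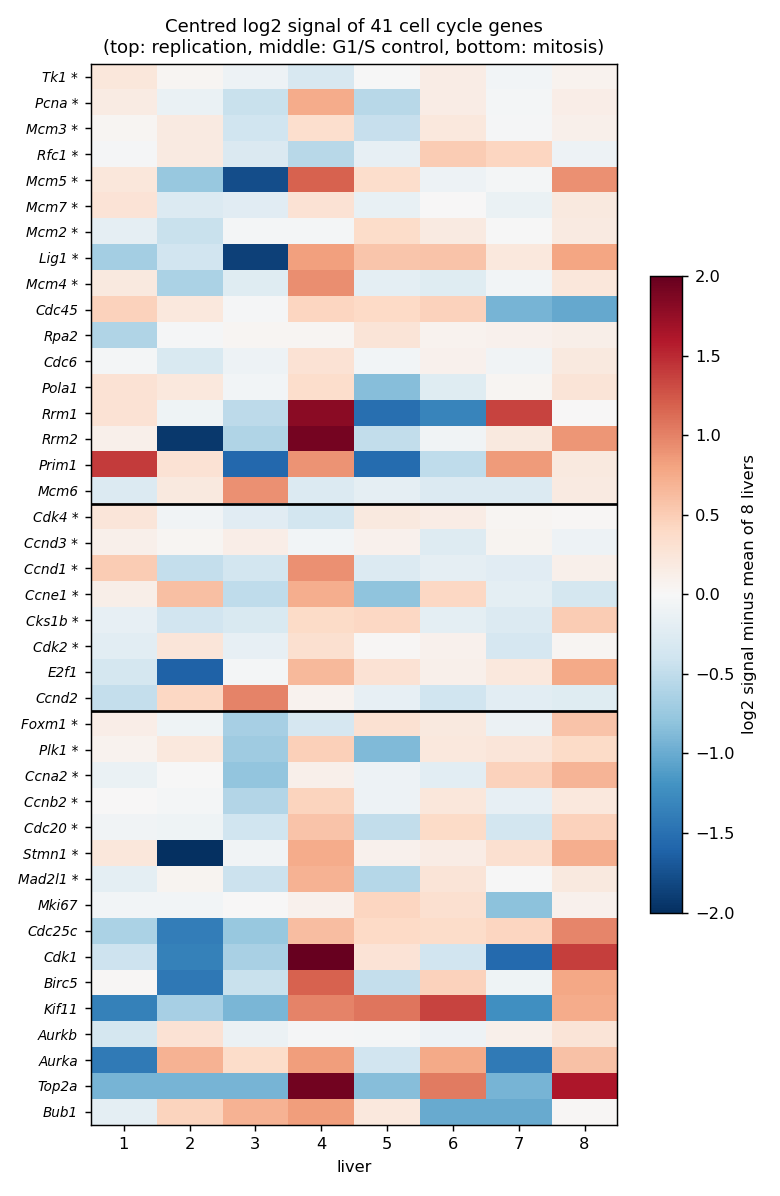
Rows are the 41 genes in the order replication, G1/S control, mitosis, columns are livers 1 to 8, and colour is log2 signal minus the gene's mean over livers (asterisks mark tested genes, and colours are cut at 2 on either side). Column 4 is red for most rows and blue for a few, among them Tk1, Cdk4, Rfc1 and Foxm1.

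Replication and mitosis genes were highest and lowest in much the same livers over the tested genes, and parted more over the few genes above 322 and over all genes on the array. The mean centred log2 signal of the 9 tested replication genes was 0.03, -0.25, -0.60, 0.38, -0.03, 0.16, 0.03 and 0.28 in livers 1 to 8. For the 7 tested mitosis genes it was 0.01, -0.30, -0.52, 0.38, -0.25, 0.18, 0.05 and 0.46. Livers 4 and 8 were highest and livers 3 and 2 among the lowest on both, and the gap between the classes was largest in liver 5, at 0.22 in favour of replication, and in liver 8, at -0.18. The median of all 4819 tested genes moved by no more than 0.07 between livers. The 6 tested G1/S control genes were highest in liver 4 (0.32) and lowest in liver 3 (-0.24), with liver 8 near the middle (0.04). No test was made of these means, since they are averages over genes chosen by name.

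Over all members on the array, replication minus mitosis was 0.44 in liver 1 and 0.48 in liver 7, and -0.22, -0.27 and -0.41 in livers 4, 6 and 8. The dim mitosis genes Top2a, Kif11, Cdk1 and Aurka, below their own means in livers 1 and 7, enter this mean. With only the genes above 322, the replication mean rested on Tk1 and Pcna and ranged by 0.50, and the mitosis mean on 4 genes and ranged by 1.15, from liver 3 to liver 8. Replication minus mitosis was then 0.42 in liver 3 and -0.36 in liver 8, a range of 0.78, against 0.40 for tested genes and 0.89 for all genes on the array. The mitosis range was 0.66 without liver 3. It was 1.14 without shared-sequence probe sets, where the mean rested on 2 genes.

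**Figure D5:**
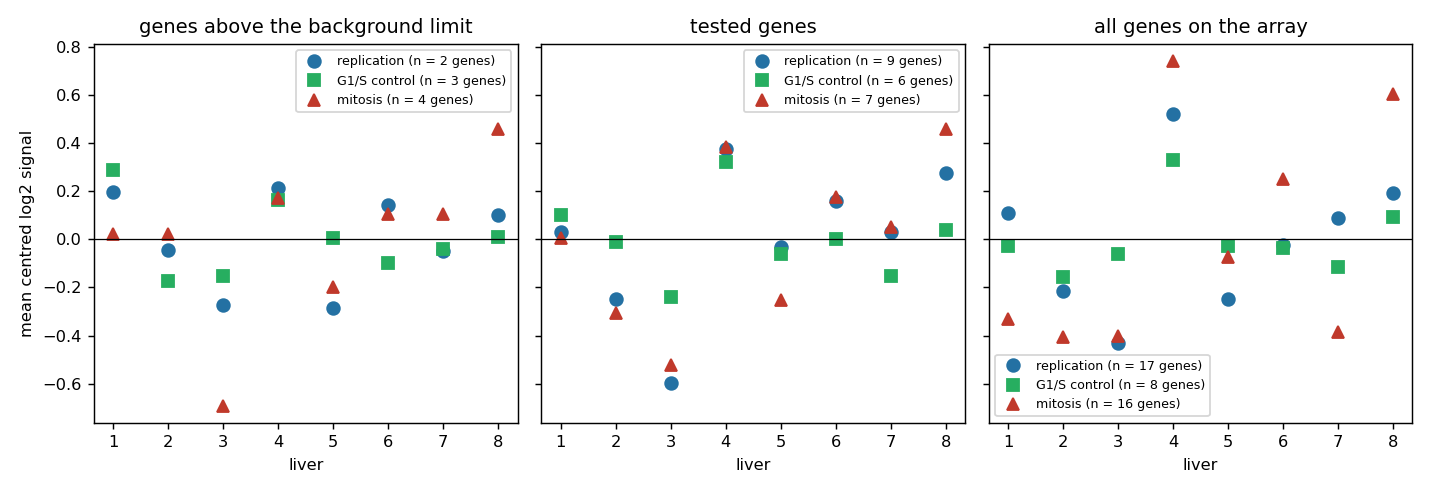
Each point is the mean centred log2 signal of a class of genes in 1 liver, for genes above a signal of 322 (left), tested genes (middle) and all genes on the array (right). In the middle panel replication (circles) and mitosis (triangles) lie close together in livers 1 to 4, 6 and 7, and both are highest in livers 4 and 8.

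Macrophage markers, some markers of other cell types and some array measures moved with the same livers. For the counts that follow, 18.1% of all 8251 genes on the array were highest in liver 4 and 43.8% had means above 322. Of 15 macrophage markers on the array, 14 were highest in liver 4 and 10 had means above 322. Their summed signal ran from 5862.5 in liver 7 to 25369 in liver 4 and 18690.0 in liver 8. Lyz2, a macrophage lysozyme, read 3563 and 1621 in livers 4 and 8 and 232 to 776 in the others. The 15 T and NK cell markers summed to 729 in liver 3, 1750.4 in liver 4 and 1436.5 in liver 8, but 1 of 15 had a mean above 322. That one, Zap70, was highest in liver 7, at 444, with 327 in liver 4, and Cd4, the next brightest, in liver 2, at 311. In all, 7 of the 15 were highest in liver 4. Cd3e read 224 and 119 in livers 4 and 8 and at most 82.8 elsewhere, and Cd3d, Cd3g, Cd2, Cd8a and Cd8b1 stayed under 61.7. All 9 hepatocyte markers on the array had means above 322, and their sum was lowest in liver 4, at 123815, and highest in liver 3, at 177437. Of 8 stellate and fibroblast markers 4 were highest in liver 4, but Col1a2, Reln and Des were lowest there, at 1312.5, 444 and 139. The mean centred log2 signal of the list was highest in liver 4 (0.30). The sum (6846 to 9223), most of it from Dcn, was highest in liver 1 and next in liver 4, at 9182. Of 11 neutrophil precursor markers 3 were highest in liver 4. S100a8 read 369 and 247 and S100a9 read 231 and 212 in livers 4 and 8, above all other livers. Csf3r and Camp, the brightest of the list, were lowest in liver 4, at 553 and 113, and Elane, the next, was second lowest there, at 143. The mean centred log2 signal of the list was highest in livers 8 (0.22) and 4 (0.18), while the sum (1439 to 2091), led by Csf3r, was highest in liver 6. The sum of 10 erythroid markers (2947 to 6687) was highest in liver 5 and lowest in liver 4, and those of 10 B and plasma cell markers (2147.5 to 2782), 8 endothelial markers (3036 to 5310) and 4 bile duct markers (72.6 to 222) were highest in livers 8, 5 and 6. Liver 4 also had the lowest 3′ to 5′ ratio of beta-actin controls, 1.24 against 1.41 to 1.74 in the others, and livers 8 and 4 the highest array medians, 180.2 and 177 against 155 to 168. The part of these cells and measures in the cell cycle values was not tested.

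Spike-in signals were higher on arrays 1 to 4 than on arrays 5 to 8 (mean log2 10.70 to 10.88 against 10.18 to 10.46), although no batch is named in the labels. Within the first set, liver 4 was the highest for 17 of 22 tested genes (27.2% of all tested genes), which includes the 14 that were highest in liver 4 over all 8 livers and so could not be otherwise. Within the second set, liver 8 was the highest for 11 of 22 (24.7% of all tested genes), and both held for 10 (12.6%). With the sets centred separately, the same count of 6 of 25 probe sets passed the typical-variance test.

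Other genes of the pathway, from longer lists, passed the typical-variance test in shares near or below that of all tested probe sets. The array carried 43 of 51 other replication genes, with 21 probe sets tested and 1 past the test, 42 of 52 other mitosis genes, with 16 tested and 2 past it, and 27 of 35 other G1/S regulators and inhibitors, with 17 tested and 1 past it, against 11.3% of all tested probe sets. Pold2, a subunit of DNA polymerase delta, read 175 to 745, highest in livers 5 and 4 (adjusted p = 5.32e-06 in that test). Kif22, a chromosome-binding motor, read 129, 148, 74.3, 438, 143, 181, 141.5 and 315, with livers 4 and 8 apart from the other 6 (adjusted p = 0.00045 in that test). Kif20a, a motor of cell division, ranged from 52.3 in liver 3 to 308 in liver 8 (adjusted p = 0.000179 in that test). Cdkn1a, the Cdk inhibitor p21, read 186, 199, 241, 293, 141, 84.0, 125 and 335 (adjusted p = 0.0104 in that test), so this inhibitor was highest in livers 8 and 4 too. A further, brighter Cdkn1a probe set was also highest in livers 8 and 4, at 455 and 409, and did not pass (adjusted p = 0.146 in that test). All but Cdkn1a were measured on probe sets of shared-sequence type. Most other G1/S regulators and inhibitors did not share the order of Cdkn1a. By brightest probe set, livers 4 and 8 were the highest 2 for 3 of the 15 tested (9.71% of all tested genes). Cdkn1c, too dim to be tested, was lowest in liver 4, at 114.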

How the data were processed

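Per the labels, liver RNA of 8 mice was hybridised to 1-colour arrays and scanned. The deposited values are 1 linear intensity per probe set and array. The software, the scaling target and any detection calls were not stated in those sources. Trimmed means (2% at each end) of the arrays differed by 0.00896%, so the values were taken as already scaled by the authors. Probe set names came from the platform annotation.

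Values below the 10th percentile, 11.2, were set to it before log2. The typical-variance test used loess (span 0.3) and a chi-square reference (7 degrees of freedom) in R 4.3.3, across all 6211 tested probe sets, at an adjusted p of 0.05. The alternative was an F test against the prior fitted by limma 3.58.1. The typical-variance test was checked on simulated data. It calls genes more variable than most, for any reason. A score is the mean centred log2 signal of a list, with 1 probe set a gene, the brightest on average. Named in full were members past the test and the 3 widest-varying members per role above the background limit. Members, lists and tests were chosen with earlier results of these data known. The labels call each sample the liver of a mouse and name no pooling; the p-values measure the spread between these 8 samples, and that number limits the precision.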

Additional observations from a re-analysis of the deposited data

Results flagged for a closer look

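Of 68 sets of 8 values examined for a single liver far from the others (59 probe sets and 9 class means), 6 probe sets met the criterion, a gap to the nearest value larger, as a share of the whole log2 range, than Dixon's 95% critical value for 8 samples. Chance marks about 1 in 20 such sets. Stmn1 had liver 2 far below the others (gap 0.724 of the range, 5.77 against 7.88 or more). Rpa2 had liver 1 below the others (0.656, 6.31 against 6.88 or more), and E2f1 on its brighter probe set had liver 2 (0.538, 5.31 against 6.59 or more). The brighter Mki67 probe set had liver 7 lowest (0.607, 6.29 against 7.05 or more). The dimmer Stmn1 probe set had liver 5 highest (0.780, 4.85 against at most 3.79) and Mcm6 had liver 3 highest (0.603, 4.67 against at most 3.95), both in the range of background signals.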

How the results depend on the processing

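The count of 9 probe sets above background was 26, 36, 5 and 24 with the limit at the median, at the bacterial controls, in every liver and at the 90th percentile. The count of 6 varying members is given here with the share of all tested probe sets in brackets (11.3% in the main setting). It was 0 with the limma-based test (0.00%) and 10 without the filter on low signals (8.63%). It was 3 without livers 4 and 8 (8.03%), and 5 to 6 with any 1 liver left out (9.42% to 11.1%). The replication range of 0.50 was 0.95 with all members and 0.97 with tested members, and 0.48 to 0.50 with any 1 liver left out. The mitosis range of 1.15 was 0.66 to 1.15 with any 1 liver left out and 0.80 without livers 4 and 8, and the G1/S range of 0.46 was 0.34 to 0.46 with any 1 liver left out. The 14 genes highest in liver 4 were 23 of 41 over all members, because more genes are counted. For the other changes the cause was not tested. Of the 11 members named in full, median scaling ended the calls of Pcna and Ccnd1, while quantile normalization, no floor and separate centring of array sets changed no call. With no detection calls at hand, a low signal may be background. No paired analysis was possible because all samples belong to a single group.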
